A study of Cucumis sativus with 12 samples.

Results

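Leucine-rich repeat (LRR) receptor kinases sit in the plasma membrane with repeats outside that bind peptides or steroids and a kinase inside that passes the signal on. Many pair with a coreceptor such as BAK1, and some carry a kinase that is thought to be inactive and act by holding partners. In flowers of other plants, members of the family set organ growth, anther layers, vascular strands and immunity, and peptide signals of this kind also act between pollen tubes and pistil.

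The genes described here were those whose deposited Swiss-Prot description names an LRR receptor-like or inactive receptor kinase, BRASSINOSTEROID INSENSITIVE 1 or its associated kinase, or HAIKU, with at least 30 counts over all libraries. The description matched 159 of 24345 genes, and 139 met the count minimum. Of the other 20 genes, 10 had no count in any library, and the highest of the 20 had 24 counts, against 43 for the lowest gene kept. The filter on low counts passed 137 of the 139, all but CsaUNG008840 and Csa1G470320. The members carry 76 distinct protein names, and 96 share a name with another member. Names are best matches to proteins of other species, most of them Arabidopsis, so roles given below are background from there. Where near-identical copies lie side by side, the split of reads between them is uncertain. Of the members, 38 fell in 14 runs of neighbouring gene IDs.

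The tissue was the stigma with the style, taken from cucumber flowers at anthesis, when the flower opens, and its RNA was sequenced. The 4 genotypes, with 3 biological replicates each, were wild type (WT), the Csspt mutant (Csspt-/-), the Csalc mutant (Csalc-/-) and the double mutant (CssptCsalc-/-, written Csspt Csalc below). SPATULA and ALCATRAZ are related basic helix-loop-helix factors of carpel development, and the title of the series names transmitting tract development, fruit cavity and female sterility as its subject. The kind of mutation and the number of plants behind a library are not given in the labels. Libraries held 32155631 to 37986853 counts. Csalc replicate 3 stood apart: its log2 CPM (counts scaled to library size) correlated with the other libraries at 0.810 to 0.856. Counts of called genes are therefore given with all 12 libraries and again without that library, a choice made with earlier results of these data known. A test of a single gene that is given once comes from the 12 libraries. Every receptor kinase and partner gene called there in the double mutant was called in the same direction without that library, with an edgeR adjusted p of at most 0.0111 for the 14 receptor kinases and 0.00987 for the 13 partner genes, and log2 fold changes that differed by at most 0.0105 between the fits. That library is neither double mutant nor WT, so both fits compare the same libraries and differ mainly in the shared spread. The kept calls are therefore no independent check. The biological coefficient of variation was 0.363 with it and 0.193 without it.

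Cell types beyond the labelled tissue were followed through marker lists. Summed FPKM (fragments scaled to gene length and library size) of 13 carpel and style genes was 128 to 138 in WT and 109 to 133 in the double mutant. In this list 2 genes were at 0 in all WT libraries, and WIP6 (Csa5G365160) was at 0 in 9 of the 12 libraries. The sum of 18 green tissue genes was 1442 to 1667 in WT and 2785 to 3389 in the double mutant, and 242 to 2271 in Csalc. The sum of 23 phloem genes was 264.5 to 297.7 in WT and 323 to 406 in the double mutant, where 2 of the 23 were at 0 in all 3 libraries. The sum of 4 xylem genes was 9.10 to 13.1 in WT and 12.9 to 14.1 in the double mutant. The sum of 18 stamen and pollen genes was 42.8 to 45.6 in WT, 32.8 to 38.9 in the double mutant and 38.6 to 132 in Csalc, and ABORTED MICROSPORES (Csa5G514470), a tapetum factor, was at 0 in 5 libraries. This list includes the pollen receptor-like kinases that are counted again with the partner genes below. By edgeR with 12 libraries, 2 of the 4 xylem genes rose in the double mutant, CesA7 (Csa2G070320) by 3.16 and CesA8 (Csa1G470270) by 2.68 on the log2 scale, and 3 of the 4 did so without Csalc replicate 3. Both calls (edgeR adjusted p = 0.0217 and 0.0387) were lost without any 1 WT or Csspt Csalc library. Of the phloem genes 4 of 19 tested rose, all of the SIEVE ELEMENT OCCLUSION B name, and without that library 11 of 20 rose and 1 fell. Of the green tissue genes 1 of 18 rose with 12 libraries, and without that library 14 rose and 1 fell. Of 10 tested carpel and style genes AGAMOUS (Csa1G467100) rose by 2.14 while WIP2 (Csa3G810580) and SHI RELATED SEQUENCE 1 (Csa6G504650) fell by 2.86 and 1.08 on the log2 scale. None of 11 tested stamen and pollen genes was called with 12 libraries, and 1 rose and 1 fell without Csalc replicate 3. Beside these counts, 3.77% of all genes rose and 3.41% fell in the double mutant with 12 libraries. Without Csalc replicate 3 the shares were 19.2% and 16.8%. Of the 10 marker genes called in the double mutant with 12 libraries, 4 were called in each of the 12 fits that left out 1 library. These were AGAMOUS, WIP2 and the phloem genes Csa1G002870 and Csa2G349660. The median log2 fold change in the double mutant with 12 libraries was 1.51 for xylem, 1.09 for phloem, 0.77 for green tissue, 0.08 for carpel and style and -0.17 for stamen and pollen genes. The part of these shifts in the changes below was not tested, and fewer cells of a type cannot be told apart from less RNA per cell in bulk tissue.

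In WT the receptor kinases were mostly low, with a few abundant members. The median over the 139 members was 2.02 FPKM, against 6.31 FPKM over the 20021 genes that met the same count minimum. Of the members, 31 reached 10 FPKM, 89 reached 1 FPKM and 13 lay under 0.1 FPKM. A kinase named BAM1 (Csa6G497080), in Arabidopsis a CLE peptide receptor close to CLAVATA1, was highest at 180 ± 10.7 FPKM (SD, n = 3), and its lowest WT library lay above every WT library of the other members. Next came a kinase named for At5g10290 (Csa4G026780) at 86.1 ± 6.69 FPKM, an inactive receptor kinase named for At1g48480 (Csa1G042930) at 78.1 ± 3.35 FPKM and a kinase named for At1g67720 (Csa3G736770) at 74.8 ± 7.91 FPKM. The WT libraries of these 3 overlapped, so their order is within the spread.

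The following ranks were held by an inactive kinase named for At4g23740 (Csa5G151550) at 56.3 ± 2.36 FPKM and the coreceptor BAK1 (Csa4G106870) at 56.1 ± 0.378 FPKM, which overlapped each other. The hydrogen peroxide sensor HPCA1 (Csa3G727910) was at 49.5 ± 4.44 FPKM, with all 3 WT libraries below those of both. An inactive kinase named for At2g25790 (Csa3G895620) at 37.7 ± 10.6 FPKM, a second At4g23740 kinase (Csa5G139660) at 36.6 ± 1.28 FPKM and BIR2 (Csa5G633220), which holds BAK1 back in Arabidopsis, at 35.1 ± 1.45 FPKM overlapped in WT. Counting BIR2, 5 of the 10 most abundant members are named as inactive kinases. None of the 10 was called against WT in any mutant with 12 libraries, and of these only BAM1 was called in the double mutant without Csalc replicate 3.

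**Figure D1:**
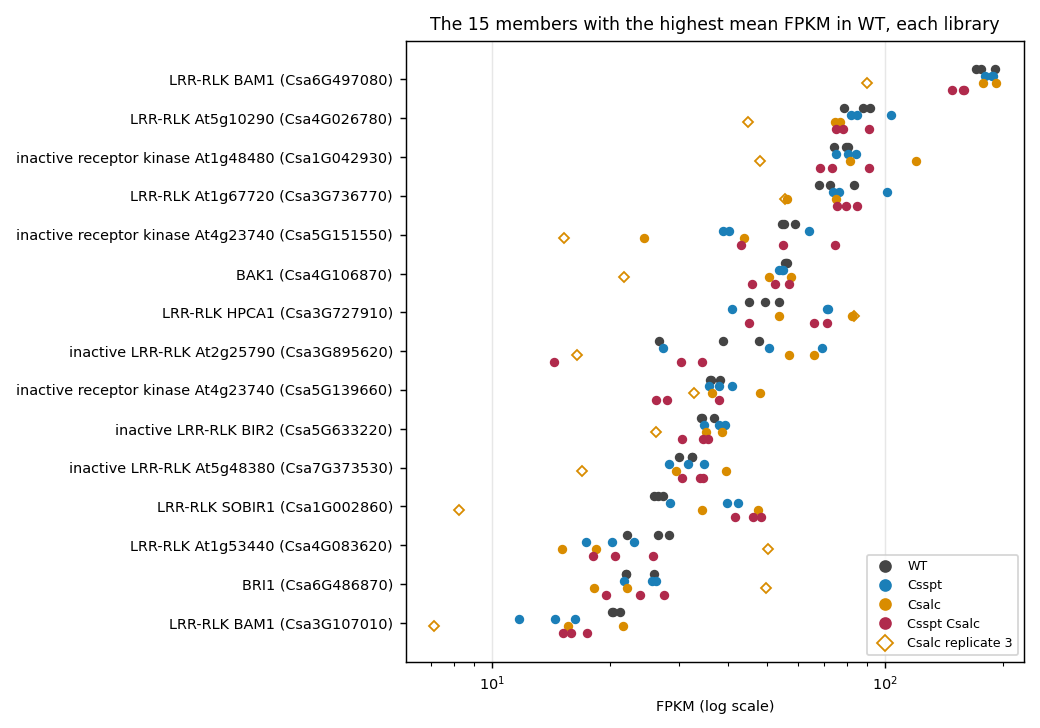
FPKM (log scale) of the 15 members with the highest WT mean, each point a library, coloured by genotype, with Csalc replicate 3 as an open diamond. The WT points of BAM1 (Csa6G497080), mean 180 FPKM, stand above all others, and the open diamond lies below the other Csalc points for most of the genes.

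The first question of the design is which receptor kinases differ from WT in each mutant. A gene is called here when edgeR's quasi-likelihood test gives a Benjamini-Hochberg adjusted p under 0.05 over all genes tested. With 12 libraries no member was called in Csspt, where 0.0584% of all genes were called. At an unadjusted p under 0.05 there were 11 members, or 8.03% of those tested, near the 7.51% of all genes. DESeq2 called 4 members, where it called 1.73% of all genes, and limma called 0, where it called 0.138%. In Csalc 4 members rose, where 0.159% of all genes rose, and 1 fell, where 0.626% fell. In the double mutant 9 members rose and 5 fell out of 137 tested, which is 6.57% and 3.65%, where 3.77% of all genes rose and 3.41% fell, 7.18% in all.

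Without Csalc replicate 3 the counts were larger for members and for all genes. In Csspt 7 members rose and 3 fell, where 1.99% of all genes rose and 2.73% fell. For Csalc 10 rose and 2 fell, where 1.79% and 2.57% of all genes did. In the double mutant 38 rose and 14 fell, which is 27.7% and 10.2% of those tested, where 19.2% of all genes rose and 16.8% fell. Counted in either direction, the 52 members called in the double mutant were 38.0% of those tested, near the 36.1% of all genes. All 14 members called in the double mutant with 12 libraries, and all 5 in Csalc, were called in the same direction without that library. For the double mutant both fits compare the same libraries, so this is no independent check.

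The fold changes of the members lay on the higher side. The median log2 fold change of the members in the double mutant was 0.34 with 12 libraries and 0.33 without Csalc replicate 3, against 0.03 over all genes in both fits. In Csspt it was 0.14 and 0.13, against 0.02 and 0.01 over all genes. In Csalc it was 0.49 with 12 libraries and 0.18 without replicate 3, against 0.06 and 0.02. Members under 10 FPKM in WT had a median of 0.43 in the double mutant with 12 libraries, with 77 of 106 above 0, and those at or above 10 FPKM had -0.12, with 11 of 31 above 0. The split and the fold changes use the same WT libraries, which by itself can push these sets apart. All genes were not split this way. With 12 libraries, all 3 libraries of the double mutant lay above all 3 of WT for 50 members, where this held for 27.3% of all genes, and below for 23 members, where it held for 24.4%. For Csspt these were 25 and 13 members, where 15.4% and 15.2% of all genes did so, and for Csalc 26 and 8, where 12.3% and 13.4% did.

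**Figure D2:**
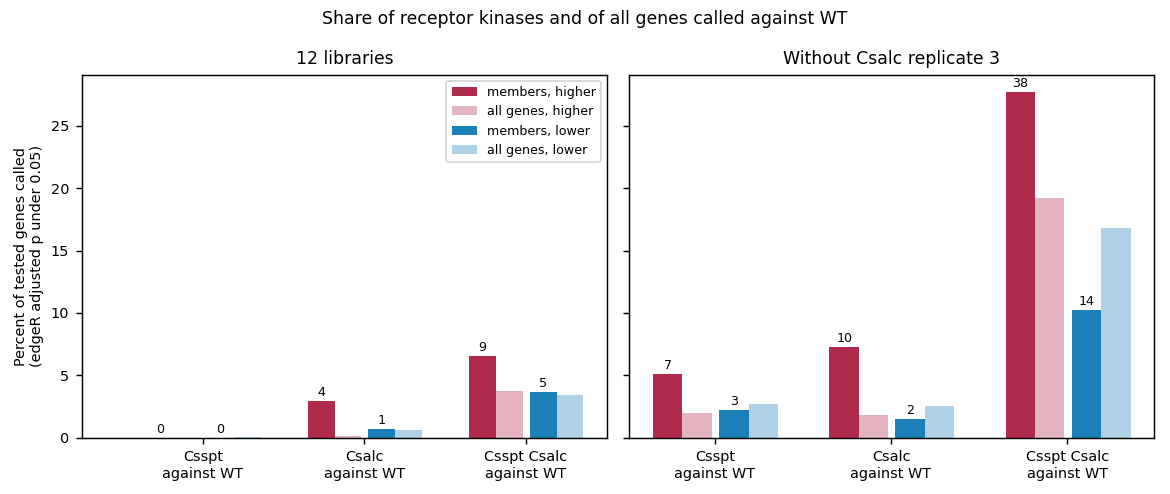
Percent of tested receptor kinases (solid bars, with the number of members above) and of all tested genes (pale bars) called higher or lower than WT by edgeR, with 12 libraries on the left and without Csalc replicate 3 on the right. In the double mutant the members' share exceeds that of all genes on the higher side in both fits (9 and 38 members), and on the lower side falls under it without Csalc replicate 3 (14 members).

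Receptors of CLE and TDIF peptides, which in Arabidopsis hold stem cell pools and the vascular cambium, were grouped by name together with the PXC1, PXC3 and CORYNE genes. This group held 13 members, so its counts are not those of known peptide receptors alone. With 12 libraries 3 fell and none rose in the double mutant, and without Csalc replicate 3 the counts were 7 and 3. Counts by role in the double mutant stand beside the shares of all genes given above, 3.77% higher and 3.41% lower with 12 libraries and 19.2% and 16.8% without Csalc replicate 3. PXC1 (Csa3G748260), which Arabidopsis uses in secondary walls of fibres, had 22.7, 16.4 and 17.1 CPM in WT, 8.26, 14.6 and 17.2 in Csspt, 6.09, 19.98 and 5.602 in Csalc and 2.03, 4.58 and 2.80 in the double mutant. The double mutant lay below every other library, while Csspt and Csalc overlapped WT. Its log2 fold change in the double mutant was -2.58 ± 0.53 (SE, edgeR adjusted p = 0.0179), and -2.59 ± 0.45 (edgeR adjusted p = 0.00184) without Csalc replicate 3. In the latter fit the double mutant also lay below Csspt, at -2.09 (edgeR adjusted p = 0.0149), and below Csalc, at -2.06 (edgeR adjusted p = 0.0236). With 12 libraries these differences were -2.09 (edgeR adjusted p = 0.131) and -1.75 (edgeR adjusted p = 0.167).

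CORYNE (Csa4G008240), named as an inactive kinase, works with CLAVATA2 in Arabidopsis. It had 6.83, 3.34 and 3.99 CPM in WT, against 1.80, 2.14 and 2.57 in the double mutant. WT and the double mutant did not overlap, and WT replicate 1 stood above the other two. On the log2 scale the change was -1.12 ± 0.29 (edgeR adjusted p = 0.0469), and -1.13 ± 0.28 (edgeR adjusted p = 0.0111) without Csalc replicate 3. A gene of the same group named RPK2 (Csa5G464830) had 6.57, 7.94 and 6.45 CPM in WT, 5.30, 4.71 and 3.61 in Csspt, 7.11, 5.77 and 8.30 in Csalc and 3.90, 2.33 and 3.60 in the double mutant. Csspt and the double mutant both lay below WT, and Csalc overlapped WT. The fall in the double mutant was -1.09 ± 0.25 on the log2 scale (edgeR adjusted p = 0.0260), and -1.10 ± 0.22 (edgeR adjusted p = 0.00372) without Csalc replicate 3.

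The second RPK2 gene (Csa4G099760) had 84.2, 95.0 and 77.2 CPM in WT, against 58.5, 58.0 and 58.3 in the double mutant. Those groups did not overlap. Its log2 fold change was -0.55 ± 0.19 (edgeR adjusted p = 0.110), and -0.56 ± 0.08 (edgeR adjusted p = 8.08e-04) without Csalc replicate 3. The abundant BAM1 (Csa6G497080) had 817, 896 and 811 CPM in WT, 854, 848 and 796 in Csspt, 892, 819 and 319 in Csalc and 627, 695 and 702 in the double mutant. The double mutant and Csalc replicate 3 lay below WT, and Csspt overlapped it. The log2 fold change in the double mutant was -0.32 ± 0.30 (edgeR adjusted p = 0.554) with 12 libraries and -0.33 ± 0.08 (edgeR adjusted p = 0.0112) without Csalc replicate 3. A second BAM1 (Csa3G107010) differed by -0.46 (edgeR adjusted p = 0.473) and -0.47 (edgeR adjusted p = 0.0219) in these fits, and the third (Csa6G497070), the neighbour of the abundant one, by 0.16 (edgeR adjusted p = 0.693) and 0.15 (edgeR adjusted p = 0.570).

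Members of this group that share a name did not all move alike. PXC3 was the name of Csa4G166920, with 8.14, 8.90 and 8.41 CPM in WT, against 4.84, 3.05 and 3.34 in the double mutant. The other PXC3 (Csa7G284420) had 11.5, 7.12 and 8.77 CPM in WT, against 14.1, 19.6 and 24.998 in the double mutant. In neither gene did the groups overlap, and they lay on opposite sides of WT. For Csa4G166920 and Csa7G284420 without Csalc replicate 3 the log2 fold changes were -1.19 (edgeR adjusted p = 8.11e-04) and 1.09 (edgeR adjusted p = 0.00504), and with 12 libraries -1.18 (edgeR adjusted p = 0.106) and 1.10 (edgeR adjusted p = 0.100015). The TDIF receptor TDR, which keeps cambium cells dividing in Arabidopsis, was the name of Csa2G009290 and Csa4G022350. Both rose without Csalc replicate 3, by 0.86 (edgeR adjusted p = 0.0184) and 1.496 (edgeR adjusted p = 0.00891), and were not called with 12 libraries. In Csalc, Csa4G022350 had 1.66, 1.84 and 58.0 CPM, so its Csalc mean rests on replicate 3. Csa7G284420 and both TDR genes were picked out after their values were seen.

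The ERECTA family, receptors of EPF peptides that promote organ growth and space stomata in Arabidopsis, had 2 members, and they lay on opposite sides of WT. ERL1 (Csa5G014290) had 3.62, 3.94 and 3.63 CPM in WT, 4.04, 3.18 and 5.09 in Csspt, 4.75, 6.13 and 7.67 in Csalc and 7.43, 9.93 and 11.8 in the double mutant. Csalc and the double mutant lay above WT in every library, and Csspt overlapped it. ERL1 rose in the double mutant by 1.38 ± 0.25 on the log2 scale (edgeR adjusted p = 0.0110). Without Csalc replicate 3 it also exceeded Csspt, by 1.24 (edgeR adjusted p = 0.00651), which was not called with 12 libraries (edgeR adjusted p = 0.0752).

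ERECTA itself (Csa4G648520) had 10.9, 11.8 and 16.1 CPM in WT, 9.43, 5.19 and 4.49 in Csspt, 5.90, 2.40 and 15.1 in Csalc and 3.62, 4.203 and 3.795 in the double mutant. Every mutant library except Csalc replicate 3 lay below WT. On the log2 scale the change in the double mutant was -1.74 ± 0.55 (edgeR adjusted p = 0.0829) with 12 libraries and -1.75 ± 0.35 (edgeR adjusted p = 0.00345) without Csalc replicate 3. In Csalc it was -0.73 (edgeR adjusted p = 0.403) and -1.65 (edgeR adjusted p = 0.0467) in these fits. In FPKM, ERECTA (Csa4G648520) had 3.17 ± 0.643 FPKM in WT, against 1.02 ± 0.068 in the double mutant, while ERL1 (Csa5G014290) had 0.894 ± 0.0442 and 2.52 ± 0.513 FPKM, so the order of their means was reversed.

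**Figure D3:**
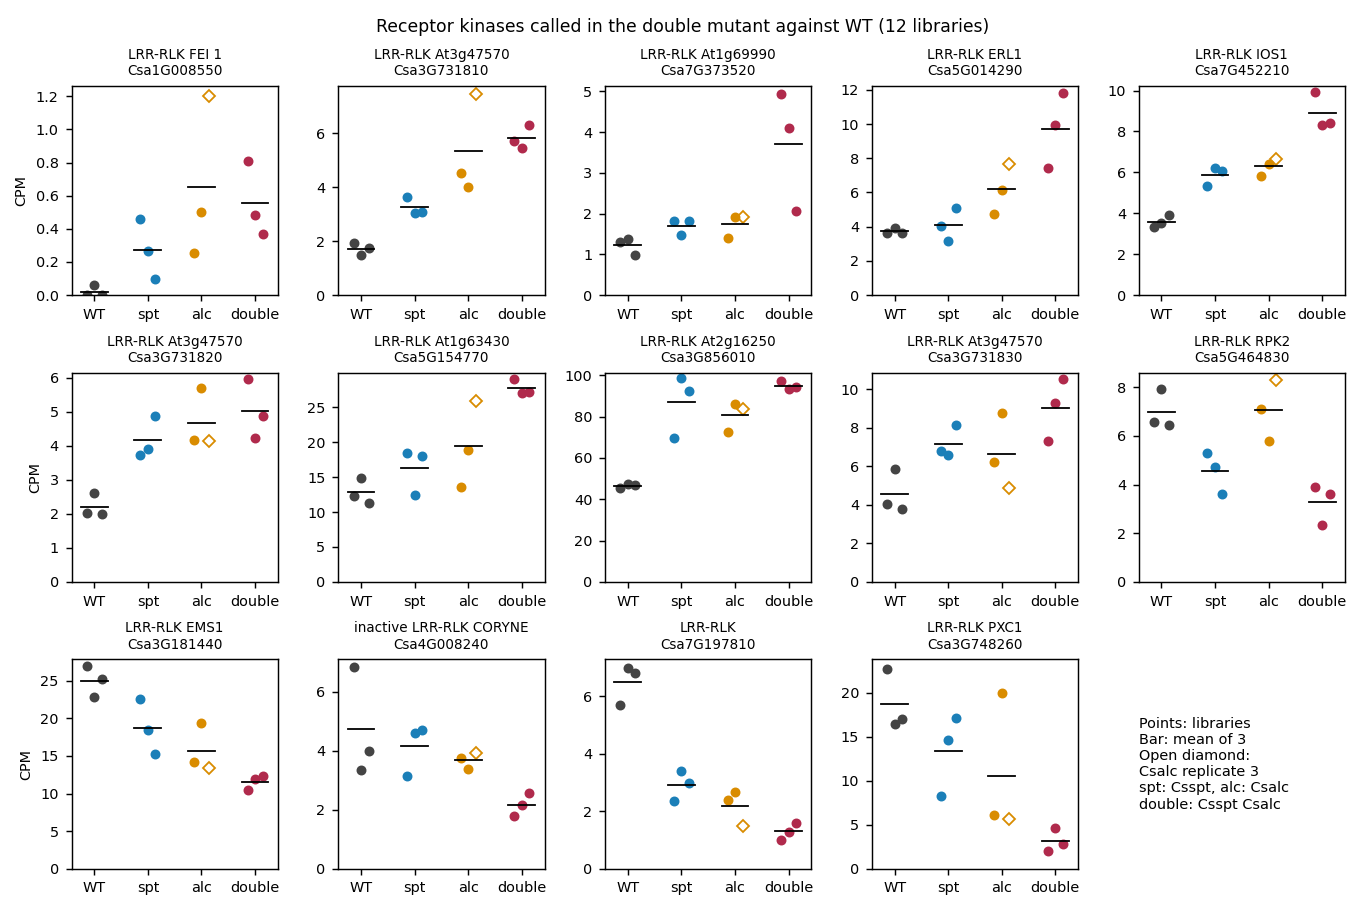
CPM of the 14 receptor kinases called in the double mutant against WT with 12 libraries, each point a library and each bar the mean of 3, with Csalc replicate 3 as an open diamond. For all 14 the double mutant lies wholly above or wholly below WT, and for most the mean of each other mutant lies between them.

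EMS1 (Csa3G181440), which in Arabidopsis sets the fate of the tapetum in the anther, had 27.0, 22.9 and 25.2 CPM in WT, 22.6, 18.4 and 15.3 in Csspt, 14.2, 19.4 and 13.5 in Csalc and 10.47, 11.97 and 12.3 in the double mutant. All mutant libraries lay below all WT libraries. The log2 fold change was -0.42 (edgeR adjusted p = 0.653) in Csspt, -0.67 (edgeR adjusted p = 0.133) in Csalc and -1.11 ± 0.19 (edgeR adjusted p = 0.00832) in the double mutant. Without Csalc replicate 3 only the last was called, at -1.12 ± 0.16 (edgeR adjusted p = 6.61e-04). A receptor with no further name (Csa7G197810) showed the same order, with 5.70, 6.99 and 6.81 CPM in WT, 2.37, 3.39 and 2.98 in Csspt, 2.39, 2.66 and 1.499 in Csalc and 1.01, 1.28 and 1.60 in the double mutant. All mutant libraries lay below WT. It fell by 1.57 ± 0.27 in Csalc (edgeR adjusted p = 0.0315) and by 2.32 ± 0.28 in the double mutant (edgeR adjusted p = 0.00169) on the log2 scale. With Csalc replicate 3 left out it was also called in Csspt, at -1.16 (edgeR adjusted p = 0.0150).

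Brassinosteroid receptors and BAK1, which promote cell growth, comprised 3 members, and none was called in any mutant in either fit. BRI1 (Csa6G486870) averaged 23.2 ± 2.26 FPKM over WT libraries and 23.5 ± 3.92 over those of the double mutant, with a log2 fold change of -0.09 ± 0.24 (edgeR adjusted p = 0.843). BAK1 (Csa4G106870) averaged 56.1 ± 0.378 and 51.8 ± 5.56 FPKM, with a log2 fold change of -0.22 ± 0.34 (edgeR adjusted p = 0.724). Their libraries overlapped between WT and the double mutant for BRI1 but not for BAK1, whose double mutant libraries had 115, 136 and 149 CPM against 156, 155 and 157 CPM in WT. A second gene of the BAK1 name (Csa7G059160) had under 1 CPM in every library. The HAESA-like receptor HSL2, named for kin that act in organ shedding, was the name of 2 members. Csa2G373400 rose without Csalc replicate 3, by 0.51 (edgeR adjusted p = 0.0382), and had 0.52 (edgeR adjusted p = 0.174) with 12 libraries. Csa3G115100 was not called, at 0.09 and 0.08. GSO1 (Csa1G051820), a receptor of the root barrier, stayed under 0.5 CPM in every library.

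Of the 7 members grouped as immune receptors and regulators, RKF3 among them, 1 rose in the double mutant with 12 libraries and 4 without Csalc replicate 3. Of all genes 3.77% and 19.2% rose. None of the 7 fell in either fit, where 3.41% and 16.8% of all genes fell, and no difference between this group and other genes was tested. IOS1, which joins immune receptor complexes in Arabidopsis, was the name of 2 neighbouring genes. Csa7G452210 had 3.33, 3.53 and 3.93 CPM in WT, 5.33, 6.22 and 6.06 in Csspt, 5.83, 6.39 and 6.63 in Csalc and 9.91, 8.33 and 8.42 in the double mutant. WT lay lowest and the double mutant highest, with no overlap of either with any other group. It rose by 0.81 ± 0.16 in Csalc (edgeR adjusted p = 0.0475) and by 1.30 ± 0.16 in the double mutant (edgeR adjusted p = 0.00168). Its neighbour Csa7G452200, picked after its values were seen, had 22.6, 16.5 and 28.9 CPM in WT, 51.7, 46.8 and 6.44 in Csalc and 50.7, 59.7 and 62.3 in the double mutant. The double mutant lay above WT, and Csalc replicate 3 lay below it. The log2 fold change in the double mutant was 1.34 in both fits, with an edgeR adjusted p of 0.173 with 12 libraries and 3.86e-04 without Csalc replicate 3.

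RKF3 (Csa1G086390) was placed in this group by its name, and an immune role for it was not tested. It had 45.4, 43.5 and 48.5 CPM in WT, 69.7, 77.0 and 77.6 in Csspt, 85.3, 104 and 22.3 in Csalc and 68.3, 97.7 and 109 in the double mutant. All mutant libraries but Csalc replicate 3 lay above WT. Without that library it rose in Csspt by 0.70 (edgeR adjusted p = 0.0310), in Csalc by 1.04 (edgeR adjusted p = 0.00870) and in the double mutant by 0.99 (edgeR adjusted p = 9.06e-04), and with 12 libraries it was not called (double mutant edgeR adjusted p = 0.181). SOBIR1 (Csa1G002860), a kinase partner of some receptor-like proteins, had 74.8, 73.1 and 72.4 CPM in WT, 76.1, 105 and 111 in Csspt, 94.1, 129 and 17.2 in Csalc and 116, 107 and 127 in the double mutant. Again Csalc replicate 3 was the one mutant library below WT. The log2 fold change in the double mutant was 0.67 ± 0.51 (edgeR adjusted p = 0.458) with 12 libraries and 0.66 ± 0.15 (edgeR adjusted p = 0.00708) without Csalc replicate 3. The flagellin receptor FLS2 (Csa6G522700) had 45.1, 24.5 and 64.6 CPM in WT, against 39.1, 62.0 and 45.7 in the double mutant, which overlapped, and BIR2 (Csa5G633220) was not called in either fit, at -0.18 ± 0.20 (edgeR adjusted p = 0.623).

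Receptors of guard cells, walls and roots comprised 12 members, of which 1 rose in the double mutant with 12 libraries and 5 without Csalc replicate 3, and none fell. FEI 1, which acts in cell wall growth of Arabidopsis roots, was the name of 4 genes, and 3 of them rose without Csalc replicate 3. Of these, Csa4G055370 had 33.4, 28.9 and 30.6 CPM in WT, 43.7, 38.0 and 61.1 in Csalc and 43.5, 39.2 and 41.6 in the double mutant. Both mutants lay above WT. Its log2 fold change in the double mutant was 0.42 ± 0.16 (edgeR adjusted p = 0.149), and 0.41 ± 0.09 (edgeR adjusted p = 0.00711) without Csalc replicate 3. Csa4G674750 had 6.34, 3.97 and 4.58 CPM in WT, 9.92, 8.11 and 49.4 in Csalc and 13.4, 8.67 and 13.3 in the double mutant. Csalc replicate 3 was the highest of all. On the log2 scale the change was 1.25 ± 0.60 (edgeR adjusted p = 0.239), and 1.24 ± 0.27 (edgeR adjusted p = 0.00518) without that library.

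The FEI 1 gene called with 12 libraries, Csa1G008550, was near the floor, with 0, 0.0635 and 0 CPM in WT, against 0.811, 0.482 and 0.371 in the double mutant. The groups did not overlap, yet the adjusted value of the test (edgeR adjusted p = 0.0328) rests on few counts, and it reached 1 FPKM in no group. HPCA1 (Csa3G727910) had 206, 173 and 193 CPM in WT, against 157, 256 and 240 in the double mutant, which overlapped. The other HPCA1 (Csa3G844910) was not called in either fit, at -0.16 ± 0.13 (edgeR adjusted p = 0.496) with 12 libraries. IRK (Csa6G014590), a receptor of shoot and root tips picked after its values were seen, had 5.13, 5.91 and 5.99 CPM in WT, 6.98, 6.84 and 45.1 in Csalc and 17.9, 11.9 and 14.2 in the double mutant. The double mutant lay above WT, and Csalc replicate 3 above both. Its log2 fold change in the double mutant was 1.37 (edgeR adjusted p = 0.207) with 12 libraries and 1.36 (edgeR adjusted p = 2.15e-04) without Csalc replicate 3.

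**Figure D4:**
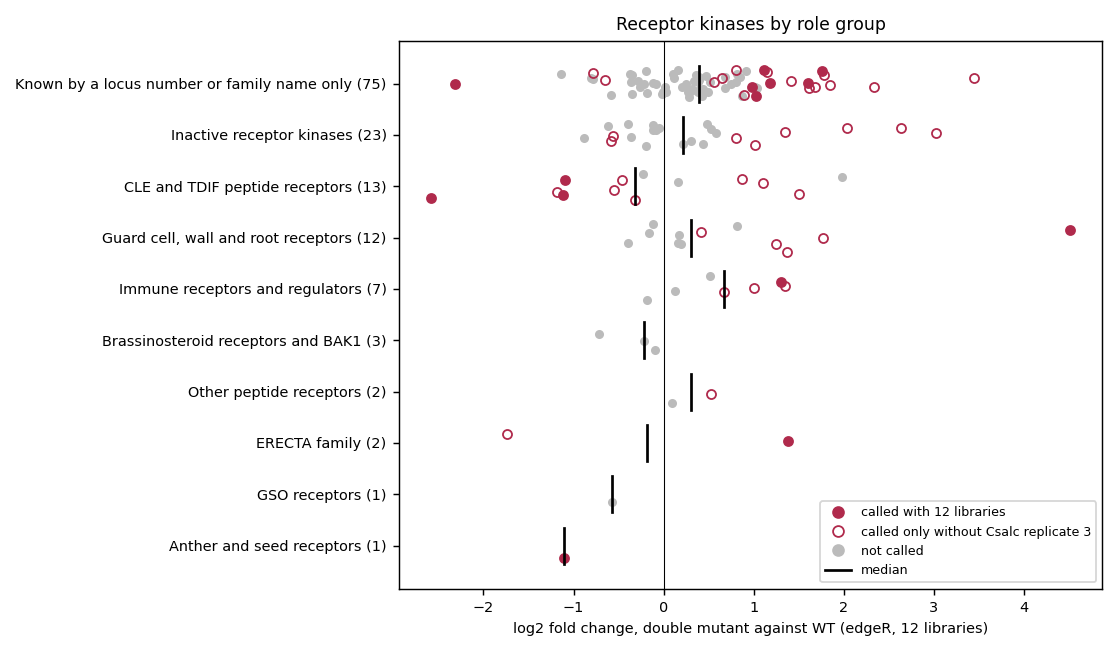
Log2 fold change of each tested receptor kinase in the double mutant against WT (12 libraries), by role group with the number of members in brackets. Filled points were called with 12 libraries, open points only without Csalc replicate 3, and the bar is the group's median, which is -0.32 for the CLE and TDIF group and 0.67 for the immune group.

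The inactive receptor kinases other than those named CORYNE, BIR2 and IMK2, which were placed in the groups above, comprised 23 members. CORYNE (Csa4G008240), called in the double mutant with 12 libraries, is thus counted in the CLE and TDIF group. Of the 23 none was called in the double mutant with 12 libraries, 0 in Csspt and 1 in Csalc. Without Csalc replicate 3, 6 rose and 2 fell in the double mutant. The kinase named for At5g58300 (Csa6G133750) was the one with the largest rise among the Csalc calls with 12 libraries. It had 3.91, 7.72 and 4.06 CPM in WT, 1.91, 6.04 and 6.25 in Csspt, 25.5, 30.1 and 31.7 in Csalc and 5.75, 9.07 and 7.70 in the double mutant. Csalc lay above all other groups, replicate 3 included, and the double mutant overlapped WT. It rose in Csalc by 2.48 ± 0.43 on the log2 scale (edgeR adjusted p = 0.0315). The double mutant differed from Csalc by -1.95 ± 0.42 (edgeR adjusted p = 0.0668), and by -1.89 ± 0.43 (edgeR adjusted p = 0.0213) without Csalc replicate 3. The departure from additivity, which asks whether the double mutant differs from the sum of both single changes, was -1.81 ± 0.59 (edgeR adjusted p = 0.704) and -1.75 ± 0.59 (edgeR adjusted p = 0.239) in these fits.

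Among inactive kinases called in the double mutant without Csalc replicate 3, the kinase named for At3g28040 (Csa4G015810) had 3.07, 2.80 and 3.11 CPM in WT, 3.33, 2.89 and 4.56 in Csspt, 1.499, 4.80 and 85.6 in Csalc and 22.9, 15.8 and 17.0 in the double mutant. The double mutant lay above every library but Csalc replicate 3. On the log2 scale the change against WT was 2.63 ± 1.10 (edgeR adjusted p = 0.176) with 12 libraries and 2.62 ± 0.35 (edgeR adjusted p = 4.54e-04) without it. Against Csalc the sign turned, from -0.73 (edgeR adjusted p = 0.796) to 2.55 (edgeR adjusted p = 0.00617). The kinase named for At3g03770 (Csa1G050370), with 0.811, 0.508 and 0.393 CPM in WT, 0.829, 0.829 and 38.3 in Csalc and 7.15, 3.59 and 3.28 in the double mutant, showed the same turn, from -1.51 (edgeR adjusted p = 0.628) to 2.49 (edgeR adjusted p = 0.0418). For both genes Csalc replicate 3 was the highest library. The kinase named for At1g60630 (Csa5G049530) had 1.22, 1.43 and 1.18 CPM in WT, against 7.15, 4.497 and 4.05 in the double mutant, with a log2 fold change of 2.03 in both fits (edgeR adjusted p = 0.0745 and 5.69e-04).

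Csalc replicate 3 differed from its own group unevenly across the roles. Of the 137 members tested, 51 (37.2%) were more than 2-fold above the mean of Csalc replicates 1 and 2 there, and 27 (19.7%) more than 2-fold below, against 21.9% and 20.6% of all genes tested. Of the 23 inactive kinases grouped as above, without CORYNE, BIR2 and IMK2, 14 were above and 5 below. Of the guard cell, wall and root receptors 7 of 12 were above and none below. Of the immune group, RKF3 included, 1 of 7 was above and 4 below. The inactive kinase named for At2g26730 (Csa2G005900), picked after its values were seen, had 26.1, 26.4 and 304 CPM in the Csalc replicates, and 27.3 to 28.9 CPM in the double mutant. The groups' medians in Csalc therefore depend on this library: for inactive kinases the median log2 fold change was 0.86 with it and 0.10 without it.

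**Figure D5:**
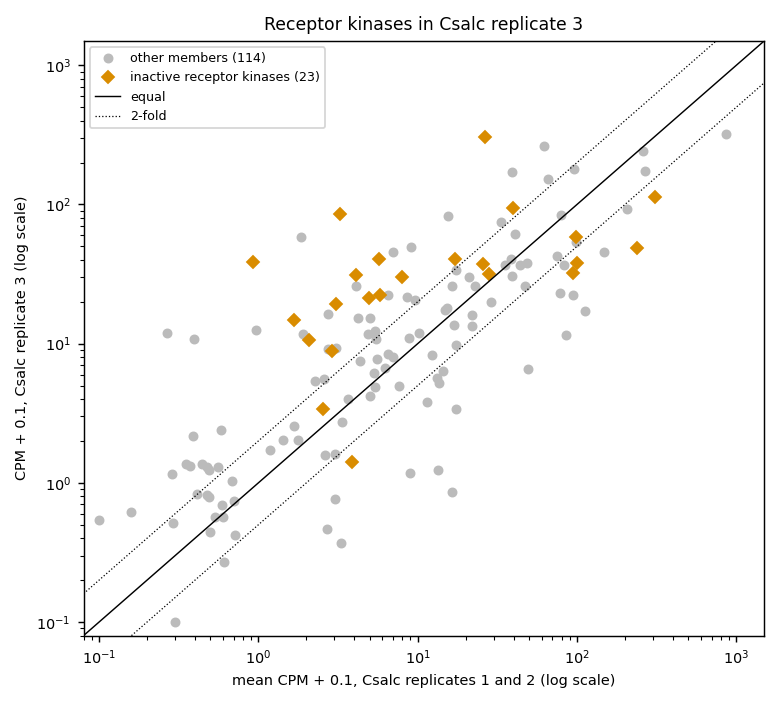
CPM of each tested member in Csalc replicate 3 against the mean of Csalc replicates 1 and 2 (both plus 0.1, log scales), with inactive receptor kinases as diamonds, the line of equal values and dotted lines at 2-fold. More of these inactive kinases lie above the upper dotted line (14 of 23) than below the lower one (5 of 23). Genes named CORYNE, BIR2 and IMK2 are in other groups and are plotted with the other members.

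The largest group, 75 members known only by a locus number or family name, had 73 tested, of which 6 rose and 1 fell in the double mutant with 12 libraries, and 18 rose and 3 fell without Csalc replicate 3. The name At3g47570, a kinase related to immune receptors, was held by 9 of them, of which 8 were tested. All 8 had a log2 fold change above 0 in the double mutant, and 3 were called with 12 libraries. Those 3 belong to a run of 5 neighbouring IDs, Csa3G731800 to Csa3G731840, whose log2 fold changes were above 0 in all 3 mutants in both fits. The median of the run in the double mutant was 1.18 with 12 libraries and without Csalc replicate 3. Neighbouring copies may share reads, which was not measured here. In Csalc replicate 3 the copies lay apart, with Csa3G731810 above the mean of Csalc replicates 1 and 2 by 0.79 and Csa3G731840 below it, at -3.45, on the log2 scale.

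Within the run, Csa3G731810 had 1.94, 1.49 and 1.73 CPM in WT, 3.64, 3.03 and 3.08 in Csspt, 4.53, 4.03 and 7.47 in Csalc and 5.70, 5.46 and 6.31 in the double mutant. All mutant libraries lay above WT. It rose by 1.63 ± 0.25 in Csalc (edgeR adjusted p = 0.0197) and by 1.75 ± 0.25 in the double mutant (edgeR adjusted p = 0.00401), and without Csalc replicate 3 also in Csspt, by 0.91 (edgeR adjusted p = 0.0171). Csa3G731820 had 2.03, 2.61 and 2.00 CPM in WT, against 5.96, 4.23 and 4.88 in the double mutant, a rise of 1.18 ± 0.23 (edgeR adjusted p = 0.0140). Csa3G731830 had 4.02, 5.88 and 3.797 CPM in WT, against 7.30, 9.29 and 10.53 in the double mutant, a rise of 0.98 ± 0.26 (edgeR adjusted p = 0.0489). Neither overlapped WT. Csa3G731840 had 3.62, 2.99 and 3.93 CPM in WT, 14.7, 11.99 and 1.13 in Csalc and 14.6, 9.07 and 10.1 in the double mutant. Here Csalc replicate 3 lay below WT and the other mutant libraries above it. Its log2 fold change in the double mutant was 1.68 ± 0.67 (edgeR adjusted p = 0.157), and 1.67 ± 0.24 (edgeR adjusted p = 6.52e-04) without Csalc replicate 3. Csa3G731800, the lowest, was not called, at 0.92 (edgeR adjusted p = 0.274) and 0.91 (edgeR adjusted p = 0.122).

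A kinase named for At2g16250 (Csa3G856010) rose in Csalc and the double mutant and was the most abundant of the 14 called genes in WT, at 10.4 ± 0.224 FPKM. It had 45.5, 47.5 and 46.7 CPM in WT, 69.4, 98.7 and 92.5 in Csspt, 72.7, 85.9 and 83.8 in Csalc and 97.1, 93.3 and 94.3 in the double mutant. All mutant libraries lay above WT, and Csspt overlapped the double mutant. The log2 fold change was 0.90 ± 0.13 in Csspt (edgeR adjusted p = 0.0564), 0.80 ± 0.13 in Csalc (edgeR adjusted p = 0.0275) and 1.03 ± 0.13 in the double mutant (edgeR adjusted p = 0.00254). The double mutant differed from Csspt by 0.13 ± 0.13 (edgeR adjusted p = 0.768) and from Csalc by 0.23 ± 0.13 (edgeR adjusted p = 0.477).

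The kinase named for At1g63430 (Csa5G154770) had 12.2, 14.9 and 11.2 CPM in WT, 18.4, 12.4 and 17.97 in Csspt, 13.6, 18.9 and 25.8 in Csalc and 29.1, 27.0 and 27.2 in the double mutant. The double mutant was above every other library. It rose by 1.12 ± 0.24 (edgeR adjusted p = 0.0208), and without Csalc replicate 3 the double mutant exceeded both single mutants by 0.77 (edgeR adjusted p = 0.0185 against Csspt and 0.0342 against Csalc). The kinase named for At1g69990 (Csa7G373520) had 1.30, 1.37 and 0.982 CPM in WT, against 4.94, 4.10 and 2.05 in the double mutant, a rise of 1.60 ± 0.33 (edgeR adjusted p = 0.0191). Its lowest double mutant library stood near Csspt and Csalc, at 1.40 to 1.92 CPM. The last 3 named kinases of this group were among the largest changes without Csalc replicate 3. Those named for At2g19210 (Csa7G452050) and At1g34110 (Csa6G052820) rose by 1.77 (edgeR adjusted p = 0.00912) and 1.61 (edgeR adjusted p = 0.0165), and that for At1g67720 (Csa6G425100) fell by 0.79 on the log2 scale (edgeR adjusted p = 0.00370). With 12 libraries their edgeR adjusted p was 0.145, 0.216 and 0.339.

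Domain content and position were not used to choose the genes. The deposited table gives 1 Pfam family a gene, a protein kinase for 82 members, an LRR for 29, malectin for 21 and none for 7. With 12 libraries, 6 of the 82 kinase genes rose and 2 fell in the double mutant, 2 of 28 tested LRR genes rose and 3 fell, and 1 of 21 malectin genes rose and none fell, where 3.77% of all genes rose and 3.41% fell. Without Csalc replicate 3, 26 kinase genes rose and 8 fell, 7 LRR genes rose and 5 fell, and 5 malectin genes rose and 1 fell, where 19.2% of all genes rose and 16.8% fell. Of the 21 malectin genes 16 had a log2 fold change above 0 in the double mutant, with a median of 0.40. Of the 38 genes in runs of neighbouring IDs, 33 had a log2 fold change above 0 in the double mutant, with a median of 0.51, against 55 of 99 and a median of 0.16 among members outside runs. Neighbours may share reads, and the difference between these sets was not tested.

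The second question of the design is where the double mutant differs from each single mutant. With 12 libraries no member was called against Csspt, where 0.361% of all genes were, or against Csalc, where 0.711% were. At an unadjusted p under 0.05 there were 14 members against Csspt, 10.2% of those tested where 12.3% of all genes were, and 23 against Csalc, 16.8% where 13.7% of all genes were. DESeq2 called 8 and 5 members, where it called 4.71% and 5.22% of all genes, and limma called 0 and 1, where it called 1.03% and 1.76%. With Csalc replicate 3 left out, 18 members were higher and 5 lower than in Csspt, where 7.82% of all genes were higher and 6.59% lower, and 11 were higher and 6 lower than in Csalc, where 6.24% and 4.94% were. No member departed from additivity by edgeR in either fit, where 0% and 0.0262% of all genes did, and none did by DESeq2 or limma, where 0.329% and 0.0106% of all genes did. At an unadjusted p under 0.05 there were 10 members with 12 libraries, where 6.76% of all genes were, and 27 without Csalc replicate 3, where 13.9% were. The comparisons of the mutants with WT share the WT libraries, so a gene called in more than 1 of them is not a repeated observation. With 12 libraries, 6 members rose and 4 fell in the double mutant without a call in either single mutant, 3 rose and 1 fell in Csalc and the double mutant, and 1 rose in Csalc alone. Of all genes, 3.64% rose and 2.82% fell in the double mutant without a call in either single mutant, 0.122% rose and 0.531% fell in Csalc and the double mutant, and 0.0371% rose in Csalc alone. Without Csalc replicate 3, 28 rose and 10 fell in the double mutant without a call in either single mutant, and 6 rose and 1 fell in all 3 mutants. Those first counts are 20.4% and 7.30% of the members, where 16.6% and 13.0% of all genes showed the pattern, and the others 4.38% and 0.730%, where 0.509% and 1.12% did.

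Partners of the receptors were followed through lists chosen by name. These lists also hold receptor kinases whose names did not match the description used for members, and all are called partner genes here. Their counts in the double mutant stand beside the same shares of all genes, 3.77% higher and 3.41% lower with 12 libraries and 19.2% and 16.8% without Csalc replicate 3. None of 11 tested peptide ligand genes was called in the double mutant with 12 libraries, and 3 rose and 1 fell of 13 tested without Csalc replicate 3. Of 11 other coreceptors none rose and 2 fell with 12 libraries, and 3 rose and 2 fell without Csalc replicate 3. Both that fell were TMK kinases, which in Arabidopsis act in auxin responses at the cell surface. TMK4 (Csa6G109770) had 66.0, 84.8 and 76.6 FPKM in WT, against 38.1, 33.7 and 35.7 in the double mutant, which did not overlap, and fell by 1.19 ± 0.19 on the log2 scale (edgeR adjusted p = 0.00690). TMK1 (Csa3G781570) fell by 0.65 ± 0.17 (edgeR adjusted p = 0.0415). The 3 that rose without Csalc replicate 3 were SERK1 (Csa4G036610), a coreceptor close to BAK1, by 1.73 (edgeR adjusted p = 0.00452), and the genes named NIK2 (Cucumis_sativus_newGene_328) by 0.59 (edgeR adjusted p = 0.0115) and NIK3 (Csa2G348900) by 0.60 (edgeR adjusted p = 0.0109). Of 7 phytosulfokine and PSY receptors 1 fell, the tyrosine-sulfated glycopeptide receptor (Csa7G430750), by 1.17 ± 0.21 (edgeR adjusted p = 0.0105), and without Csalc replicate 3 a further 2 rose.

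Of 6 tested pollen receptor-like kinases none was called with 12 libraries, and 1 fell in each mutant without Csalc replicate 3. This was PRK3 (Csa2G000010), with 17.0, 18.3 and 18.2 FPKM in WT, 12.01, 9.46 and 8.21 in Csspt, 10.9, 9.71 and 2.77 in Csalc and 5.56, 6.49 and 7.02 in the double mutant. All mutant libraries lay below WT, Csalc replicate 3 lowest. PRK3 is also the 1 gene of the stamen and pollen marker list that fell in the double mutant without Csalc replicate 3. The falls counted in these lists are therefore not separate results. The log2 fold change of PRK3 in the double mutant was -1.60 ± 0.46 (edgeR adjusted p = 0.0622), and -1.61 ± 0.15 (edgeR adjusted p = 7.95e-05) without that library. Of 33 receptor-like proteins, which have repeats but no kinase and some of which signal with SOBIR1, 3 rose and none fell with 12 libraries, and 10 rose and 4 fell of 34 without Csalc replicate 3. The 3 were EIX2 (Csa5G167740), at 1.78 ± 0.44 (edgeR adjusted p = 0.0378), receptor-like protein 6 (Csa6G081440), at 2.64 ± 0.65 (edgeR adjusted p = 0.0373), and EIX1 (Csa5G168740), at 2.43 ± 0.64 (edgeR adjusted p = 0.0469).

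Downstream, 1 of 22 brassinosteroid signalling genes rose and 2 fell with 12 libraries, and 6 rose and 3 fell without Csalc replicate 3. The BSK1 genes, kinases that BRI1 acts on, went opposite ways, Csa6G358660 by 0.74 ± 0.18 (edgeR adjusted p = 0.0340) and Csa6G127340 by -0.39 ± 0.09 (edgeR adjusted p = 0.0278), and the GSK3-like kinase eta (Csa6G519650), a brake on this pathway, fell by 0.58 ± 0.15 (edgeR adjusted p = 0.0412). Of 26 receptor-like cytoplasmic kinases only PBL9 (Csa6G190390) was called with 12 libraries, rising by 1.65 ± 0.42 (edgeR adjusted p = 0.0433), and 6 rose and 5 fell without Csalc replicate 3. Of 38 MAP kinase cascade genes 2 rose and 1 fell with 12 libraries, and 6 rose and 6 fell without that library. MAPKKK17 was the name of Csa6G513560, which had 1.80, 1.74 and 1.81 FPKM in WT, against 7.94, 6.27 and 6.67 in the double mutant, and of Csa2G416770, which had 32.8, 33.6 and 29.6 FPKM in WT, against 13.998, 4.99 and 7.46 in the double mutant. These neither overlapped WT nor moved the same way, at 1.84 ± 0.17 (edgeR adjusted p = 5.86e-04) and -1.98 ± 0.34 (edgeR adjusted p = 0.00859). MPK7 (Csa4G045070) rose by 1.12 ± 0.27 (edgeR adjusted p = 0.0313).

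The calls in the double mutant differed in how much rested on 1 library. Of the 14 members called with 12 libraries, 5 were called in each of the 12 fits that left out 1 library, namely Csa3G856010, Csa7G197810, IOS1 (Csa7G452210), EMS1 (Csa3G181440) and Csa3G731810. The other 9 were lost in at least 1 such fit, with a highest edgeR adjusted p of 0.0557 to 0.179, and none changed direction. ERL1 was lost without WT replicate 1 or 3, Csa3G731820 without WT replicate 1 or 3 or Csspt Csalc replicate 1, and PXC1 without WT replicate 1 or 3 or Csspt Csalc replicate 1 or 3. RPK2 (Csa5G464830) and Csa5G154770 were lost without any 1 WT or Csspt Csalc library, Csa7G373520 likewise save Csspt Csalc replicate 3, and FEI 1 (Csa1G008550) also without Csspt replicate 2. CORYNE was lost in every such fit but that without Csalc replicate 3, and Csa3G731830 in every one but those without Csalc replicate 2 or 3. By limma on log2(FPKM + 1) the calls of CORYNE, RPK2 (Csa5G464830) and FEI 1 (Csa1G008550) were lost, with no filter on low counts those of CORYNE and Csa3G731830, and with RLE size factors that of Csa3G731830. FEI 1 moved from 4.52 to 7.27 on the log2 scale without WT replicate 2, the one WT library with a count.

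Of the 5 members called in Csalc none was called in all 12 such fits. All 5 were lost without any 1 WT library. Csa3G731810 was lost in those fits alone, and the other 4 also without Csalc replicate 2 and without 2 or more further Csspt or Csspt Csalc libraries. A fit of only the Csalc and WT libraries lost all 5, limma lost IOS1 and Csa3G731810, and a test with no filter on low counts lost IOS1. Of the 13 partner genes called in the double mutant, 4 were called in all 12 fits, TMK4, the glycopeptide receptor and both MAPKKK17 genes, and each of the other 9 was lost without any 1 WT library. Limma lost 6 of the 13, TMK1, both BSK1 genes, the GSK3-like kinase eta, PBL9 and receptor-like protein 6, and a test with no filter on low counts lost EIX1 (Csa5G168740) and eta.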

How the data were processed

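The deposited table gives, for 24345 genes, raw count columns (whole numbers) and, per the file headers, FPKM columns that the authors scaled for length and depth. HISAT2, HISAT and DESeq2 are named in the submitters' processing notes. Their versions, the genome build, the annotation and strand use are not given in these sources. The heading DM was taken to mean the double mutant. The authors' own comparisons were not used. Tests used edgeR 4.0.16 (R 4.3.3) on the counts, with filterByExpr (minimum count 10), TMM factors and a quasi-likelihood fit (glmQLFit, glmQLFTest) of the 4 groups together without a block, and adjustment over 18850 genes (19060 without Csalc replicate 3) and a threshold of 0.05. SE is the size of the log2 fold change over the square root of the F statistic. CPM values use TMM factors, and levels of different genes are compared in FPKM. No replicate pair was alike within sampling noise (lowest chi-square/df 14.1). Alternatives were DESeq2 1.42.0, limma 3.58.1 on log2(FPKM + 1), RLE factors, no filter, only the groups compared, a replicate block and each library left out. The fit was also run on simulated counts in which no library stood apart, so that run does not bear on the effect of Csalc replicate 3.

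The members and lists were chosen with earlier results of these data known. Named members are those called against WT without overlap and with at least 1 FPKM, the 10 highest in WT, up to 4 per role group by level, and up to 8 per direction called in the double mutant without Csalc replicate 3. Others are said to be picked later. None of the gene IDs matched the RefSeq table, so no sequence or coordinate is given.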

Additional observations from a re-analysis of the deposited data

How the results depend on the processing

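Counts of members called moved with the test. Against WT, DESeq2 called 4 members in Csspt, 17 in Csalc and 22 in the double mutant, and a fit of only the groups compared called 10, 0 and 53. Of all genes DESeq2 called 1.73%, 8.97% and 15.9%, and the fit of only the groups compared 6.77%, 0.0111% and 36.1%. Limma called 3 in Csalc, where it called 0.759% of all genes. Against Csspt the double mutant had 8 by DESeq2 and 16 by a fit of only those groups, and against Csalc 5 by DESeq2 and 1 by limma. The shares of all genes were 4.71% and 8.96% against Csspt, and 5.22% and 1.76% against Csalc. Leaving out 1 library gave 0 to 10 members in Csspt, 0 to 20 in Csalc, 5 to 52 in the double mutant, 0 to 23 for the double mutant against Csspt and 0 to 17 against Csalc. In the same order, the shares of all genes were 0% to 4.72%, 0.172% to 6.63%, 2.26% to 36.1%, 0.0365% to 14.4% and 0.0261% to 11.2%. The count in Csalc was 20 without Csalc replicate 1 and 0 without any 1 WT library, and that in the double mutant was 52 without Csalc replicate 3 and 5 to 8 without any 1 WT or Csspt Csalc library. Of all genes these fits called 6.63% and 0.172% to 0.240% in Csalc, and 36.1% and 2.26% to 3.65% in the double mutant. The cause was not tested, except that without Csalc replicate 3 the biological coefficient of variation fell from 0.363 to 0.193. No member departed from additivity under the settings run for it, which leave out the fit of only the groups compared. Among named genes, the double mutant against Csalc was reversed in Csa1G050370 (to 2.49) and Csa4G015810 (to 2.55) without Csalc replicate 3, and was -2.08 and -1.30 without Csalc replicate 1. Replicate numbers did not pair the samples: deviations of same-numbered libraries correlated at -0.252 to 0.208, with 2 of 18 pairs over 0.1. With the replicate block 2 members were called in Csalc and 10 in the double mutant, where CORYNE, RPK2 (Csa5G464830), FEI 1 (Csa1G008550) and Csa3G731830 were no longer called, and 7 of the 13 partner genes, without TMK1, PBL9, EIX1, EIX2, BSK1 (Csa6G127340) and the GSK3-like kinase eta. With that block 0.398% of all genes were called in Csalc and 4.89% in the double mutant. With 3 libraries a group and 1 of them apart, small changes of low members are not detectable at this depth, and a miss of the threshold does not show equal levels.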
